A study of Mus musculus with 8 samples.

Results

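These results describe which endogenous small RNAs of MIN6B1 cells, a mouse insulinoma line with beta cell properties, were still sequenced after periodate treatment when no methyltransferase had been supplied. The members are the 4 control plasmid libraries of 8 in all: 2 from non-oxidized RNA and 2 from RNA oxidized with sodium periodate (NaIO4), chosen by their labels. The other 4 libraries, from cells given a plasmid for the HENMT1ΔC-T6B methyltransferase and either left non-oxidized or oxidized, enter here only through the shared fit and the tests of the difference between plasmids. All cells had been transfected with a lipid reagent and were kept for 24 to 72 h, RNA was total RNA, and libraries were made from 5 ng with the QIAseq miRNA kit. The labels number the libraries of a group as replicates 1 and 2 and do not say whether they came from separate cultures, so p-values measure the spread between these libraries, which may be technical.

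Periodate opens the ribose of a 3′-terminal nucleotide that carries neighbouring 2′ and 3′ hydroxyl groups, and an RNA treated in this way can no longer be ligated to a 3′ adapter. Ends without that pair of hydroxyls, such as 2′-O-methylated ends, phosphorylated or cyclic phosphate ends and aminoacylated tRNA ends, are known to withstand it. Mature miRNAs of animals normally end in both hydroxyls. tRNAs end in the sequence CCA, which is added after transcription, and their fragments, Y RNA fragments and snoRNA fragments are common in small RNA libraries.

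The sequences on which the results turn are shown first, 5′ to 3′, as the table has them (T in place of U). In the let-7c-5p, miR-7a-5p and miR-375-3p sequences the capital is the last nucleotide, because neighbouring 3′ ends of the same miRNA behaved differently.
let-7c-5p, 19 nucleotides: tgaggtagtaggttgtatG
let-7c-5p, 20 nucleotides: tgaggtagtaggttgtatgG
let-7c-5p, 21 nucleotides: tgaggtagtaggttgtatggT
let-7c-5p, 22 nucleotides: tgaggtagtaggttgtatggtT
let-7c-5p, 23 nucleotides: tgaggtagtaggttgtatggttT
miR-7a-5p, 16 nucleotides: tggaagactagtgatT
miR-7a-5p, 23 nucleotides: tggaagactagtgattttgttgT
miR-375-3p, 16 nucleotides: tttgttcgttcggctC
miR-375-3p, 22 nucleotides: tttgttcgttcggctcgcgtgA

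The RefSeq mature forms (GRCm38.p6) are given with the seed, bases 2 to 8, in capitals. The 3 let-7 members share a seed and miR-7a-5p has another. Mature let-7c-5p lies on chromosome 16 (77599672 to 77599693, plus strand, Mirlet7c-1) and on chromosome 15 (85706616 to 85706637, plus strand, Mirlet7c-2).
mmu-let-7a-5p: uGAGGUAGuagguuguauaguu
mmu-let-7b-5p: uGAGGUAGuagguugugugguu
mmu-let-7c-5p: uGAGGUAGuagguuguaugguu
mmu-miR-7a-5p: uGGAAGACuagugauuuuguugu

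The tRNA fragments contrast ends with and without CCA, which is in capitals where present; the Rny1, snoRNA and mitochondrial sequences contrast ends at and before the end of the annotated RNA, with CCA or the last nucleotide in capitals.
tRNA-Asp, 22 nucleotides: tcgattccccgacggggagCCA
tRNA-Asp, 16 nucleotides with CCA: ccccgacggggagCCA
tRNA-Asp, 16 nucleotides without CCA: cctgtcacgcgggaga
tRNA-Trp, 17 nucleotides: tcacgtcggggtcaCCA
tRNA-Val, 54 nucleotides: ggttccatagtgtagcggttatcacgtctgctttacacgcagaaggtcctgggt
mt-Te, 41 nucleotides: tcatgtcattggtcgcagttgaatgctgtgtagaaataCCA
Rny1, first 23 nucleotides: ggctggtccgaaggtagtgagtT
Rny1, 28 nucleotides from the 3′ part: cttctcactactgcacttgactagtctT
Gm25091, 25 nucleotides: cttaatgatgattgtctgtttgatT
Gm25878, 78 nucleotides: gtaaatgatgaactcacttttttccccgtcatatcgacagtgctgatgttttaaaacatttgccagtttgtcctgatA

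In 2 pairs a sequence and its single-nucleotide variant are shown, with the differing base in capitals. Positions are counted from 1 at the 5′ end, and the substitutions are G51T in the tRNA-Lys fragment and A16G in the fragment related to 5.8S ribosomal RNA.
tRNA-Lys, 54 nucleotides: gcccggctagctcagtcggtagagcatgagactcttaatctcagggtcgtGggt
tRNA-Lys with G51T: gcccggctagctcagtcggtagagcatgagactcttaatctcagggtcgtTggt
5.8S-related, 42 nucleotides: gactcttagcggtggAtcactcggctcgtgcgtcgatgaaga
5.8S-related with A16G: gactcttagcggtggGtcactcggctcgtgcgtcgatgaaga

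The table lists 11568 distinct sequences of 16 to 80 nucleotides, and the oxidized libraries of the methyltransferase plasmid hold each of them at 2 counts or more apiece and 10 or more together. An RNA that those libraries lacked is therefore not listed, and column totals are totals of listed sequences rather than library depths. Listed counts were 5387014 and 6641250 in the non-oxidized and 438363 and 295094 in the oxidized control libraries. A count of 0 allows a share of up to 5.57e-05% and 4.52e-05% in the former and 0.000684% and 0.00102% in the latter (3 counts of the total); these limits, and the Wilson intervals, cover counting error only. Of the listed sequences, 888 and 1056 were at 0 in the non-oxidized and 4803 and 5186 in the oxidized libraries. Log2 normalized counts correlated between replicates with r = 0.964 in non-oxidized and 0.881 in oxidized RNA, across 1193 sequences with at least 10 counts in each of the 8 libraries, which are not independent replicates. As a check of the cell line, miR-375, the miRNA that marks beta cells, had 567527 and 559007 counts in non-oxidized RNA, and 3 of 16 markers of other cell types were detected, by at most 463 counts (miR-122) and by none after oxidation. All 9 markers of beta and endocrine cells were detected, but the lowest, miR-153, had only 220 and 284 counts, a level like that of miR-122. A marker that is not listed may still have been present in the cells.

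After oxidation of control RNA most miRNA counts were gone, and tRNA fragments and sequences without an annotation hit made up the bulk of what was listed. Mature miRNA sequences made up 65.27% and 65.92% of the non-oxidized counts and 3.142% and 3.428% of the oxidized counts. tRNA sequences went from 2.576% and 2.57% to 27.18% and 27.72%, and sequences with no hit from 16.86% and 15.79% to 69.59% and 68.69%. Sequences that hit a miRNA precursor only went from 15.3% and 15.72% to 0.08532% and 0.1555%. In each of these 4 classes the 2 groups were apart and the replicates of a group lay close together: mature miRNA averaged 65.59% ± 0.458 (SD, n = 2) in non-oxidized RNA and 3.285% ± 0.202 (SD, n = 2) in oxidized RNA. With 2 libraries against 2, a two-sided exact permutation test cannot give a p below 0.333, and the adjusted p over the 91 shares compared was at least 0.365; the groups did not overlap in 83 of them.

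**Figure D1:**
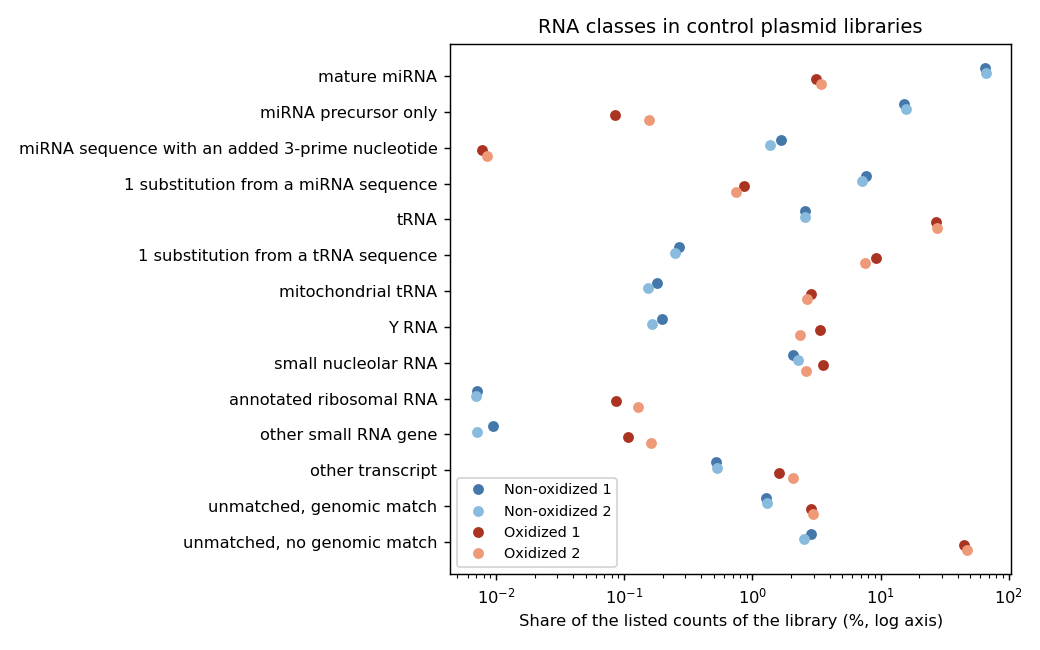
Share of the listed counts of each control plasmid library (x axis, percent, log scale) taken by each RNA class (y axis); each point is 1 library. Every class of miRNA origin takes a lower share in both oxidized libraries, with mature miRNA at a mean of 3.285% against 65.59%, and the other classes take a higher share in both.

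Shares sum to the whole of a library, so fold changes depend on the scaling. The fold changes that follow are on the scale of the trimmed mean of M values (TMM), on which the median over all 9851 tested sequences was -1.14. On this scale 1809 sequences were higher after oxidation (18.4% of those tested) and 4571 lower (46.4%), by edgeR's quasi-likelihood test with Benjamini-Hochberg adjustment. Without non-oxidized replicate 1 or replicate 2 the higher calls numbered 1170 or 1012. Of the calls, 69.1% were higher when libraries were scaled by total listed counts (5202 higher, 52.8% of those tested, and 2331 lower, 23.7%). The share was 49.7% with upper quartile scaling (3900 higher, 39.6%, and 3948 lower, 40.1%). It was 95.3% when the summed mature miRNA counts were held equal (5959 higher, 60.5%, and 294 lower, 2.98%). Against the TMM scale the typical sequence moved by 4.30, 1.71 and 8.61 on the log2 scale under these 3 scalings. Classes are therefore also given against each other: the median of tRNA sequences lay 8.47 above that of mature miRNA sequences on the log2 scale, and that difference was between 4.49 and 14.43 in all alternatives run. It is not free of the scaling, because 324 of 607 tested mature miRNA sequences were at 0 in both oxidized libraries. Their fitted fold changes depend on the prior count. With such sequences set to a bound of 3 counts in each library, the TMM medians were -0.22 for tRNA and -5.76 for mature miRNA sequences.

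Among mature miRNA sequences, 607 of 652 passed the filter on low counts. Of these 1 was higher (0.165%, against 18.4% over all tested sequences) and 563 were lower (92.8%, against 46.4%). The median log2 fold change was -8.69. It was -5.76 with the 324 sequences at 0 in both oxidized libraries set to their bound (3 counts in each library). The 1 that was higher, a 17-nucleotide miR-98-5p sequence named after its values were seen, had 0 and 0 counts before and 17 and 12 after oxidation. Sequences that hit only a precursor gave 254 lower of 257 tested and 1 higher, a 28-nucleotide mir-677 sequence with 0 and 4 counts before and 34 and 10 after. Sequences made of a miRNA plus an added 3′ nucleotide were lower in 90 of 90 tested. The medians of these 3 classes stayed below 0 under total counts, upper quartile and miRNA-sum scaling, although 127 mature sequences were higher and 102 lower under the last of these. Most of each class was at 0 in both oxidized libraries (324 of 607, 205 of 257 and 76 of 90). Fitted values of such sequences depend on the prior count and move little with the scaling, so these medians do not show a fall under every scaling. With zeros at their bound the TMM medians were -5.76, -5.53 and -5.29, while miRNA-sum scaling moved the typical sequence by 8.61.

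Both the main beta cell miRNAs and the broadly expressed families fell. miR-375-3p of 22 nucleotides, a regulator of insulin secretion, had 419998 and 408024 counts in non-oxidized RNA and 87 and 143 after oxidation (log2 fold change -12.10, SE 0.70, edgeR adjusted p = 2.79e-07). The 23-nucleotide miR-7a-5p, abundant in endocrine cells, went from 257381 and 370675 counts to 204 and 188 (log2 fold change -10.99, SE 0.59). Its 24-nucleotide form, which runs 1 nucleotide past the mature end, had more counts, 404341 and 571312 before and 51 and 171 after oxidation. let-7c-5p of 22 nucleotides, the most counted sequence, went from 579541 and 736952 to 282 and 240 (log2 fold change -11.66, SE 0.56). In each of these miRNAs both oxidized libraries lay far below both non-oxidized ones.

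The other 2 of the 5 leading miRNAs, let-7b-5p and let-7a-5p, fell, with log2 fold changes of -10.72 (SE 0.52) and -11.74 (SE 0.56). miR-340-5p is an example of complete loss: it had 8312 and 8950 counts in non-oxidized RNA and 0 in both oxidized libraries, at least 3640-fold lower on the TMM scale. All tested sequences of the miR-15 and miR-16 (15), miR-26 (9), miR-29 (12), miR-30 (20), miR-99 and miR-100 (5), miR-96, miR-182 and miR-183 (16) and miR-103 and miR-107 (7) families were lower. In the let-7 family 123 of 140 tested sequences were lower (87.9%) and in the miR-7 family 29 of 36 (80.6%). In the miR-375 family 27 of 31 were lower (87.1%). The miR-200 and miR-141 family had 23 of 24 lower (95.8%) and the miR-125 family 11 of 12 (91.7%). No member of any of these families was higher. Lower calls were 92.8% of all tested mature miRNA sequences and 46.4% of all tested sequences. The let-7, miR-7, miR-375 and miR-125 shares lay below that of mature miRNA sequences as a class.

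The miRNA counts that stayed came in larger part from short sequences. Mature miRNA sequences of 16 to 19 nucleotides held 0.7684% and 0.7613% of the mature miRNA counts before oxidation and 54.0% and 55.47% after it. Those of 20 to 24 nucleotides went from 99.13% and 99.14% to 46.0% and 44.53%. The groups did not overlap in either length class. Of 108 tested sequences of 16 to 19 nucleotides 73 were lower and 1 higher (median log2 fold change -2.89), while 488 of 497 tested sequences of 20 to 24 nucleotides were lower and none higher (median -9.27). With sequences at 0 in both oxidized libraries set to their bound, the 2 medians were -2.88 and -6.38. The median length of mature miRNA counts was 22 nucleotides in both non-oxidized and 19 in both oxidized libraries.

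The position of the 3′ end was followed in 502 sequences that start at a RefSeq mature 5′ end and run along the hairpin, from 155 named mature miRNAs. Sequences that end at the mature end itself took 62.58% ± 0.594 (SD, n = 2) of the counts of this set in non-oxidized RNA and 10.98% ± 2.25 (SD, n = 2) in oxidized RNA. Sequences ending 5 or more nucleotides before it took 0.09415% ± 0.0014 (SD, n = 2) and 29.68% ± 0.431 (SD, n = 2). In counts, the shortest group had 3394 and 4488 before and 3657 and 2526 after oxidation, whereas the group at the mature end went from 2295406 and 2932261 to 1146 and 1081. All 124 tested sequences at the mature end were lower, as were all 69 tested sequences 1 nucleotide longer. Of the 34 tested sequences that ended 5 or more nucleotides before it, 8 were lower, 1 was higher and 25 passed the threshold in neither direction.

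Within single miRNAs, sequences that end before the mature end were compared with the mature-end sequence. At 1 nucleotide before the mature end, the log2 fold change lay above that of the mature-end sequence of the same miRNA by a median of 2.22 (67 of 79 miRNAs above). At 2, 3 and 4 nucleotides before it the median difference was 3.24, 7.86 and 8.52, with 20 of 20 above at 4 nucleotides. Sequences past the mature end also lay above it more often than not, by a median of 0.81 at 1 nucleotide (42 of 62 sequences) and 1.20 at 2 nucleotides (20 of 30). These differences include mature-end sequences at 0 after oxidation, whose fitted fold change depends on the prior count. At the mature end 95 of 124 tested sequences were at 0 in both oxidized libraries, and 1 nucleotide past it 52 of 69. With zeros at their bound, the group medians were -6.86, -7.4 and -7.8 at 2, 1 and 0 nucleotides before the mature end. The median 1 nucleotide past it was -6.88. The ratio of listed-count shares, oxidized over non-oxidized, was 0.128, 0.0602 and 0.00724 at 2, 1 and 0 nucleotides before. At 1 nucleotide past, this ratio was 0.00442, below that at the mature end. All are given as a description of the listed sequences.

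let-7c-5p shows the pattern base by base in the sequences printed above. The 19-nucleotide form had 892 and 1170 counts before and 533 and 343 after oxidation, a log2 fold change of -1.63 (SE 0.40). The 20-nucleotide form, with 1 more G, went from 10307 and 13695 to 247 and 174 (log2 fold change -6.21, SE 0.43). The 21-nucleotide form went from 89885 and 124105 to 771 and 508 (log2 fold change -7.78, SE 0.48), the most counts of any mature miRNA sequence in the sum of the oxidized libraries, though not in replicate 1. The 23-nucleotide form, 1 T longer than the mature form, was left with 13 and 16 of 54248 and 64248 counts. In non-oxidized RNA the 22-nucleotide form was the most counted of these, while in oxidized RNA the 19-nucleotide form outnumbered the 22-nucleotide form in both libraries.

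**Figure D2:**
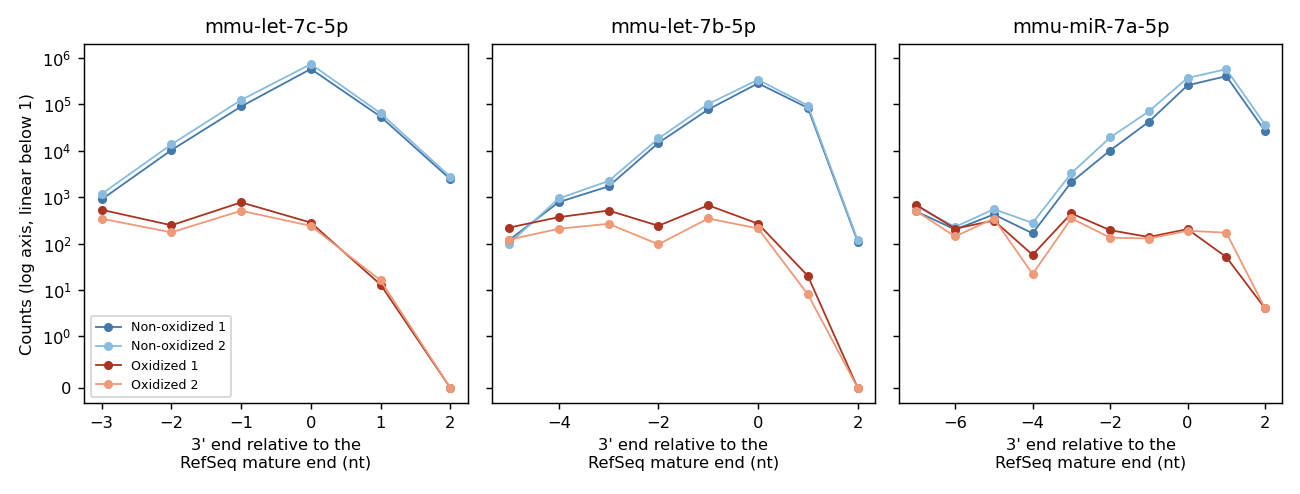
Counts (y axis, log scale, linear below 1) of let-7c-5p, let-7b-5p and miR-7a-5p sequences by the position of the 3′ end relative to the RefSeq mature end (x axis, nucleotides), 1 line per library. The non-oxidized lines peak at the mature end or 1 nucleotide past it, and the oxidized lines have no such peak and come closest to the non-oxidized lines at the shortest forms.

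In miR-7a-5p the 16-nucleotide form, 7 nucleotides short of the mature end, had 491 and 634 counts before and 680 and 496 after oxidation (log2 fold change -0.31, SE 0.35, edgeR adjusted p = 0.453). The raw counts of the groups overlapped, in contrast to the 23-nucleotide form. miR-375-3p behaved alike at its 16-nucleotide form, with 146 and 88 counts against 93 and 183 (log2 fold change -0.03, SE 0.66, edgeR adjusted p = 0.972). A 16-nucleotide sequence shared by several let-7 members had 291 and 275 counts before and 816 and 440 after (log2 fold change 0.73, SE 0.37, edgeR adjusted p = 0.101). Such short sequences can match other places in the genome, and part of their counts may not come from the miRNA; this was not tested.

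Most tested tRNA fragments passed the threshold in neither direction, and the calls came in different proportions with and without a CCA end. Of 847 tested tRNA sequences (866 listed), 69 were higher (8.15%, against 18.4% over all tested sequences) and 191 lower (22.6%, against 46.4%). The remaining 587 passed in neither direction, and the median log2 fold change was -0.22. Sequences ending in CCA took 15.88% and 15.55% of tRNA counts before oxidation and 44.6% and 44.01% after it. Of 285 tested CCA-ended sequences 38 were higher and 16 lower (median 0.29), against 31 higher and 175 lower of 562 with another end (median -0.71). The higher calls were 13.3% of the CCA-ended sequences, below the 18.4% over all tested sequences, and the lower calls were 5.61% of them and 31.1% of the others, against 46.4% over all. The difference between the 2 medians was 1.00 and stayed between 0.51 and 1.13 in all alternatives run; the lowest value is that without tRNA-Asp. Under total count scaling both medians were above 0, at 4.68 and 3.69.

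**Figure D3:**
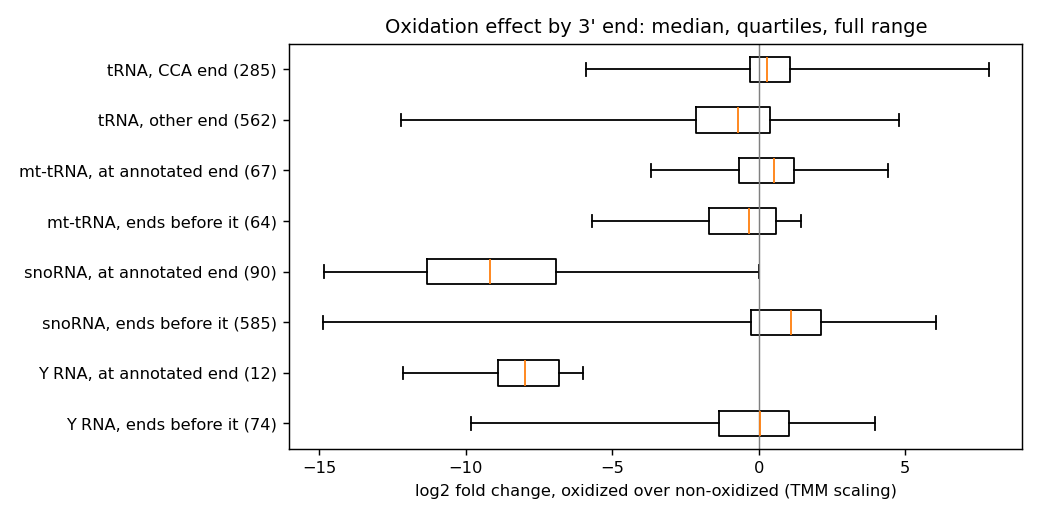
Log2 fold change, oxidized over non-oxidized (x axis, TMM scale), of tested sequences grouped by their 3′ end (y axis, number tested in brackets); the line is the median, the box the quartiles and the whiskers the full range. Sequences at the annotated end of snoRNAs and Y RNAs have medians of -9.18 and -7.98, those ending before it 1.10 and 0.06, and tRNA sequences with and without CCA 0.29 and -0.71. At the annotated end 54 of 90 snoRNA and all 12 Y RNA sequences are at 0 in both oxidized libraries. Their values depend on the prior count, and with zeros set to a bound of 3 counts in each library the 2 medians are -6.46 and -3.55.

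tRNA-Asp had the most CCA-ended sequences of any tRNA. Its 90 tested CCA-ended sequences had a median log2 fold change of 0.99 with 21 higher and 2 lower, and its 99 other sequences a median of -2.06 with none higher and 49 lower. Higher calls were 23.3% of the CCA-ended ones, against 18.4% over all tested sequences. Lower calls were 2.22% of them and 49.5% of the others, against 46.4% over all. The 16-nucleotide CCA-ended fragment went from 128 and 153 to 1841 and 725 counts (log2 fold change 2.73, SE 0.46, edgeR adjusted p = 0.00029), both oxidized libraries lying above both others. The 22-nucleotide fragment, the most counted CCA-ended one in oxidized RNA, had 3628 and 2936 counts before and 6313 and 3169 after (log2 fold change 0.10, SE 0.40, edgeR adjusted p = 0.848). A 16-nucleotide fragment of the same tRNA without CCA went from 2510 and 7914 to 6 and 0 (log2 fold change -11.13, SE 1.08).

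Among CCA-ended tRNA-Trp fragments, 6 of 12 tested sequences were higher (50.0%, against 18.4% over all tested sequences) and none lower. The 17-nucleotide fragment went from 205 and 296 to 960 and 1096 counts (log2 fold change 1.72, SE 0.43, edgeR adjusted p = 0.00437). That call was lost without non-oxidized replicate 1 (1.46). Not every CCA-ended group had higher calls: all 30 tested tRNA-Arg fragments ended in CCA, with none higher and 6 lower. tRNA-Pro had 4 CCA-ended fragments, 3 of them lower. Among fragments without CCA, a 54-nucleotide piece of tRNA-Lys had 3490 and 1962 counts before and 8541 and 7166 after oxidation (log2 fold change 1.15, SE 0.39, edgeR adjusted p = 0.0222). This call was lost without non-oxidized replicate 2 (0.76), without oxidized replicate 2 (1.00) and with DESeq2 (0.74). A 54-nucleotide piece of tRNA-Val of similar starting abundance went from 5751 and 5320 to 29 and 21 (log2 fold change -8.17, SE 0.47, edgeR adjusted p = 2.79e-07). Both end in GGGT, so the last 4 letters did not separate them.

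By length, tRNA fragments of 30 to 35 nucleotides held 40.52% and 36.57% of tRNA counts before and 13.54% and 13.61% after oxidation. Without CCA, 70 of 95 tested sequences of this size were lower (73.7%) and none higher (median log2 fold change -2.72). With CCA, 1 of 18 was higher (5.56%) and none lower. Over all tested sequences of 30 to 35 nucleotides 23.4% were higher and 19.3% lower. CCA-ended fragments of 36 to 49 nucleotides were higher in 12 of 49 tested (24.5%) and lower in none. Over all tested sequences of that length 38.6% were higher and 8.21% lower. tRNA positions are not given because no tRNA annotation was used here.

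Mitochondrial tRNAs were matched with CCA added to their genomic sequence. Of 67 tested sequences that end in the added CCA 9 were higher and 7 lower (median log2 fold change 0.54), and of 64 with an earlier end 1 was higher and 12 lower (median -0.34). Higher calls were thus 13.4% and 1.56%, both below the 18.4% over all tested sequences. Lower calls were 10.4% and 18.8%, against 46.4% over all. A 41-nucleotide 3′ fragment of mt-Te, the mitochondrial glutamate tRNA (chromosome M, 14071 to 14108, minus strand, plus CCA), rose from 73 and 57 counts to 2181 and 1509 (log2 fold change 4.43, SE 0.47, edgeR adjusted p = 8.79e-06). Among sequences matched to a mouse RNA with a mean of at least 50 counts, its log2 fold change was the highest. The whole mt-Tm, the mitochondrial methionine tRNA, with CCA had 3711 and 4683 counts before and 3988 and 1482 after (log2 fold change -1.08, SE 0.42, edgeR adjusted p = 0.0388). That value was 3.34 with total count scaling, and the call was lost without non-oxidized replicate 1 (-1.24) or 2 (-0.95) and without oxidized replicate 2 (-0.71). In raw counts 1 oxidized library lay inside and the other below the non-oxidized range; on the TMM scale of the fold change both lay below it.

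Y RNAs, small cytoplasmic RNAs bound by the Ro protein, split by fragment end. The 12 tested Rny1 and Rny3 sequences that end within 3 nucleotides of the annotated end were all lower, and the 14 listed ones had 814 and 1486 counts in non-oxidized RNA and 0 in both oxidized libraries. The 74 sequences that end earlier had 9747 and 9527 counts before and 14723 and 6981 after oxidation. Of them 5 were higher (6.76%, against 18.4% over all tested sequences) and 18 lower (24.3%, against 46.4%). The 28-nucleotide fragment of the 3′ part of Rny1 (GRCm38 chromosome 6, 47788071 to 47788098, minus strand) went from 355 and 650 counts to 0 and 0, at least 211-fold lower on the TMM scale.

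The first 23 nucleotides of the same RNA (47788158 to 47788180) had 1927 and 1518 counts before and 4725 and 2591 after (log2 fold change 0.66, SE 0.43, edgeR adjusted p = 0.196). Fragments 1 and 2 nucleotides longer fell, from 81 and 111 to 30 and 34 counts and from 46 and 56 to 13 and 9. A 39-nucleotide 5′ fragment went from 121 and 75 to 0 and 0. In Rny3 the first 24 nucleotides went from 1343 and 1681 to 618 and 321. The first 67 went from 21 and 7 to 197 and 73 (log2 fold change 2.78, SE 0.75, and 2.17 without non-oxidized replicate 2). This 67-nucleotide sequence was picked as an extreme rise. It reaches the minimum mean count of named sequences only through the oxidized libraries, so no test is given. In both Y RNAs, 5′ fragments with a common start and different ends thus lay on either side of 0 on this scale.

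snoRNAs, which guide the modification of ribosomal RNA, were lower where the sequence ran to the annotated end and mixed elsewhere. Of 90 tested sequences that end within 3 nucleotides of the annotated end 84 were lower and none higher, and their listed counts went from 59435 and 84619 to 300 and 104. Of 585 that end earlier 97 were higher (16.6%, near the 18.4% over all tested sequences) and 82 lower (14.0%, against 46.4%), and their counts went from 52284 and 66222 to 15322 and 7618. Sequences of 50 nucleotides and longer took 89.46% and 93.84% of snoRNA counts before and 25.96% and 18.36% after oxidation, and those of 25 to 29 nucleotides went from 1.882% and 0.9865% to 22.08% and 24.14%.

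A 25-nucleotide fragment near the start of Gm25091, an annotated snoRNA (chromosome 5, 146834836 to 146834860, plus strand), went from 90 and 91 counts to 1175 and 501 (log2 fold change 2.76, SE 0.67, edgeR adjusted p = 0.00359). A 25-nucleotide fragment of Rnu73b (chromosome 3, 86140663 to 86140687, minus strand) went from 108 and 79 to 513 and 316 (log2 fold change 1.74, SE 0.48, edgeR adjusted p = 0.00761), a call lost without non-oxidized replicate 2 (1.49). In both, the oxidized libraries lay above the others. By contrast a 78-nucleotide sequence of Gm25878 (chromosome 2, 167063479 to 167063556, plus strand) went from 2307 and 4380 counts to 0 in both, at least 1400-fold lower. It stops before the annotated end and so counts among the sequences that end earlier; annotated ends need not be the ends of the processed RNA.

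Sequences matched only to other annotated transcripts, coding or not, took 0.5205% and 0.5341% of the counts before and 1.604% and 2.068% after oxidation. Of these 572 sequences 320 lay in Gm42418. Of 13 tested sequences in Rpl4, a ribosomal protein gene, 8 were higher (61.5%, against 18.4% over all tested sequences) and none lower. Whether they come from the coding mRNA was not tested. The leading one, of 16 nucleotides (chromosome 9, 64175422 to 64175437, plus strand), had 90 and 92 counts before and 534 and 444 after oxidation (log2 fold change 2.06, SE 0.46, edgeR adjusted p = 0.00226). A 50-nucleotide sequence in a transcript of Rpl13, another ribosomal protein gene, went from 18 and 14 to 245 and 86 (log2 fold change 2.89, SE 0.65). It was picked as an extreme rise and reaches the mean of 50 counts only through the oxidized libraries, so no test is given. The summed Rpl13 counts went from 7349 and 10462 to 1715 and 878. When sequences were required to have counts in the oxidized control libraries, these rises were no longer called: tRNA-Trp (0.72), tRNA-Lys (0.18), Rnu73b (0.76), Rpl4 (1.07) and the 18-nucleotide 5.8S-related sequence described next (0.33). The Rny3 value was 1.81 under that filter.

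**Figure D4:**
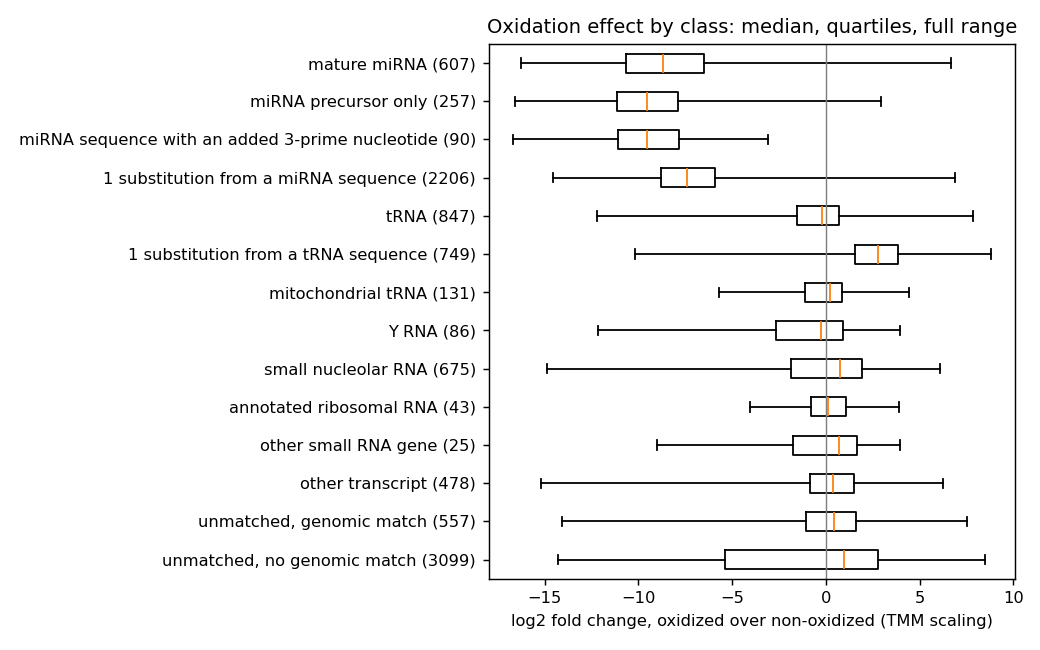
Log2 fold change, oxidized over non-oxidized (x axis, TMM scale), of tested sequences by class (y axis, number tested in brackets); the line is the median, the box the quartiles and the whiskers the full range. The 4 classes of miRNA origin have medians of -7.42 to -9.52, or -4.50 to -5.76 with sequences at 0 in both oxidized libraries set to their bound. Sequences 1 substitution from a tRNA sequence have a median of 2.80, above that of tRNA itself at -0.22.

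Sequences with neither a hit nor a match in annotated transcripts or the table's genome were the most counted class after oxidation, at 45.05% and 47.46% against 2.887% and 2.527% before oxidation. The leading family of overlapping sequences among them, 850 sequences joined by shared runs of 16 nucleotides, took 22.73% and 17.17% of oxidized and 0.5328% and 0.3961% of non-oxidized counts. Of these, 577 share runs of 12 nucleotides with n-R5-8s1, an annotated 5.8S ribosomal RNA gene. The family is called 5.8S-related here for that match, which does not cover all its members. In the whole family 464 of 827 tested sequences were higher (56.1%, against 18.4% over all tested sequences) and 17 lower (2.06%, against 46.4%). Its most counted sequence, of 18 nucleotides, went from 832 and 817 to 3272 and 2157 counts (log2 fold change 1.32, SE 0.34, edgeR adjusted p = 0.00496); the call was lost without non-oxidized replicate 1 (1.33) or 2 (1.26) and with DESeq2 (0.90). The next family, of 293 sequences, took 8.093% and 12.57% of oxidized and 0.301% and 0.226% of non-oxidized counts, and 164 of its sequences share such runs with Gm26004, annotated as ribosomal RNA.

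Single-nucleotide variants of abundant RNAs were higher relative to their parents after oxidation. The 42-nucleotide 5.8S-related sequence had 231 and 138 counts before and 3744 and 1122 after oxidation, and its A16G variant went from 1 and 2 to 596 and 126. The G51T variant of the 54-nucleotide tRNA-Lys fragment went from 4 and 2 to 519 and 73. Both variants were picked as extreme rises and reach the mean of 50 counts only through the oxidized libraries, so these values are a description and no test is given. In both variants replicate 1 of the oxidized libraries held most of the counts.

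Over sequences 1 substitution from a tRNA sequence, 472 of 749 tested were higher (63.0%, against 18.4% over all tested sequences) and 26 lower (3.47%, against 46.4%). Where the parent had at least 100 counts in each control library, such variants summed to 17.2 and 16.5 counts per 100 parent counts before and 48.6 and 37.4 after oxidation. For miRNA parents the figures were 9.06 and 7.95 before and 32.2 and 25.9 after, and for the 5.8S-related family 7.57 and 6.49 before and 61.8 and 42.4 after. The variant lay above its own parent in log2 fold change in 556 of 586 tRNA and 425 of 445 miRNA pairs. The same held in 363 of 363 pairs of the family called 5.8S-related. Pairs share parents (75, 22 and 49 parents), and whether variants are RNA or sequencing or amplification errors was not tested. Rare variants are listed only where the oxidized methyltransferase libraries hold them, which favours variants present in oxidized RNA. That limit bears on the pairs and on the counts per 100 parent counts alike.

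Over all classes, counts were less concentrated in length after oxidation. Sequences of 20 to 24 nucleotides went from 90.33% and 90.26% of the counts to 19.07% and 21.09%, and those of 16 to 19 nucleotides from 1.416% and 1.482% to 21.79% and 23.85%. Sequences of 36 to 49 nucleotides went from 1.027% and 0.9028% to 17.92% and 11.77%. Counts ending in T went from 69.63% and 71.92% to 28.31% and 27.95%, and those ending in C from 3.352% and 3.081% to 23.11% and 23.66%. Within mature miRNA counts the share ending in A overlapped between the groups, at 14.52% and 11.66% before and 12.02% and 10.8% after.

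**Figure D5:**
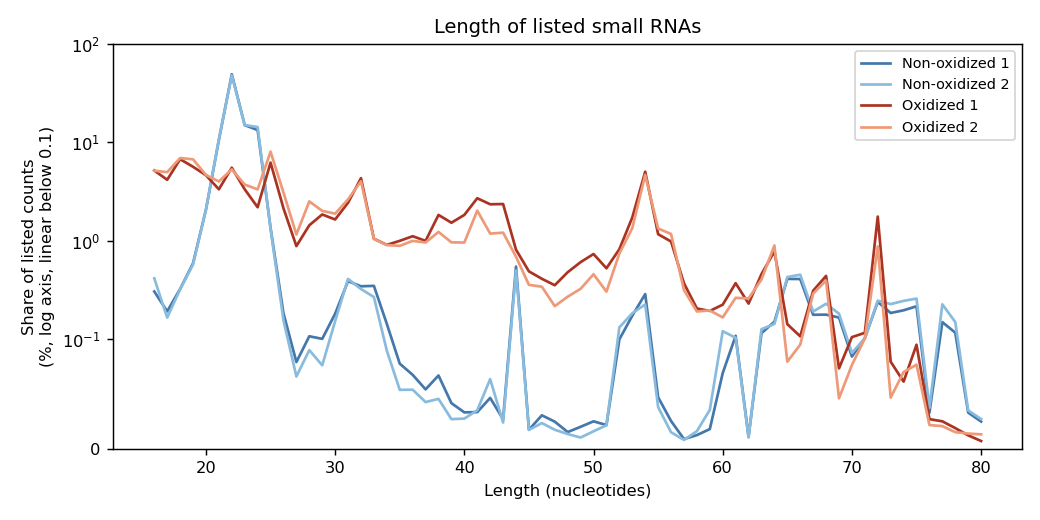
Share of listed counts (y axis, percent, log scale, linear below 0.1) by length (x axis, nucleotides), 1 line per control plasmid library. The non-oxidized libraries peak at 22 nucleotides, and the oxidized ones spread over all lengths with 20.08% in the 20 to 24 nucleotide range against 90.3%.

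The oxidation effect differed between the plasmids for most miRNA sequences and for few tRNA sequences. Over all tested sequences the interaction of plasmid and oxidation was positive for 3903 (39.6%) and negative for 296 (3.0%), by edgeR's quasi-likelihood test with adjustment. Of the mature miRNA sequences 520 of 607 were positive and none negative, so they were lost less with the methyltransferase plasmid than with the control plasmid. Of 847 tRNA sequences 17 were positive and 9 negative, and among mitochondrial tRNA sequences none was positive and 2 were negative. Of the snoRNA sequences at the annotated end 62 of 90 were positive, and of the Y RNA sequences at the annotated end 12 of 12. The listing was selected on oxidized methyltransferase libraries, which favours sequences present there.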

How the data were processed

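Small RNA of 8 MIN6B1 libraries was sequenced, and the authors deposited 1 table of raw counts per distinct sequence and library, with annotation hits and genomic matches, per the file headers. Aligner, build and counting tool are not given in the sources used here. The 12608 lines were merged to 11568 sequences; 2 with several classes stayed out of class summaries. Of 652 mature miRNA sequences 119 have no genomic match in the table. Sequences without a hit were matched exactly, in sense, to GENCODE M21 (GRCm38).

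Counts were fitted with edgeR 4.0.16 (R 4.3.3; TMM, filterByExpr, quasi-likelihood) over all 4 groups of 2 libraries, with an adjusted p threshold of 0.05 over the 9851 sequences tested. DESeq2 1.42.0, other scalings and filters, a replicate block and left-out libraries were alternatives. Shares were compared by exact permutation (scipy 1.17.1), with 95% Wilson intervals computed. Named sequences were the extreme calls with a mean of at least 50 counts over the control libraries, the most counted of each class, the main sequences of the 5 leading miRNAs and the extremes of each list; a subset is printed. Others (the shorter and longer forms of let-7c-5p, the 16- and 24-nucleotide miR-7a-5p, the miR-98-5p and mir-677 sequences, the Rny1 and Rny3 fragments without a fold change, the unsubstituted 5.8S-related sequence) were chosen after their values were seen.

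Members and lists were chosen with earlier results of these data known. The positions of 3′ ends, the annotated-end split, the added CCA, the sequence families and the variant pairs were chosen after the values were seen and get no test. The fit was tested on simulated data; a first simulation with rare sequences recovered few of the changes made, and a second, limited afterwards to sequences with more counts, recovered most, so missed calls among rare sequences are likely.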

Additional observations from a re-analysis of the deposited data

Results flagged for a closer look

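The oxidation effect differed between the plasmids for these sequences (interaction, methyltransferase minus control plasmid, log2 scale, edgeR's quasi-likelihood test with adjustment). It was 11.52 for the 22-nucleotide and 8.13 for the 21-nucleotide let-7c-5p, 10.71 for the 22-nucleotide miR-375-3p, 9.25 for the 23-nucleotide miR-7a-5p, 13.97 for miR-340-5p, 11.01 for let-7a-5p and 10.33 for let-7b-5p. It was 11.03 for the 28-nucleotide 3′ fragment of Rny1 and 5.99 for the 78-nucleotide sequence of Gm25878. It was -4.96 for the A16G variant of the 5.8S-related sequence. That variant was picked for its rise with the control plasmid, so this value is not independent of its choice. The variant reaches the minimum mean count of named sequences only through the oxidized control libraries, so its value is a description and no test is given. The values for miR-340-5p, Rny1 and Gm25878 rest on counts of 0 in oxidized control RNA and depend on the prior count.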

How the results depend on the processing

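Against 1809 higher and 4571 lower calls, total count scaling gave 5202 and 2331, upper quartile scaling 3900 higher, miRNA-sum scaling 5959 and 294, and the filter of at least 2 counts in each and 10 in the sum of the oxidized control libraries 693 and 726. DESeq2 gave 982 higher calls. Leaving out 1 library gave 1012 to 1669 higher and 4624 to 4903 lower calls. The fit with the replicate number as a block gave 1836 higher and 4603 lower calls; labels do not say that the numbers pair libraries, and the correlation of their deviations was 0.052.

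Shares of oxidized counts moved by more than 1 SD as follows. Counting distinct sequences gave 3.585% mature miRNA, 12.6% tRNA, 83.23% no hit, 28.88% of 20 to 24 nucleotides, 34.02% CCA ends and 34.17% ending in T. Without the 10 most abundant sequences the values were 3.747% mature miRNA, 26.37% tRNA, 47.16% CCA ends and 28.46% ending in T. With at least 10 counts in each control group they were 3.706% mature miRNA, 31.29% tRNA and 64.89% no hit. Leaving out a non-oxidized library cannot move these shares.

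Log2 fold changes that turned sign were as follows; the cause was not tested. With miRNA-sum scaling the 21-nucleotide let-7c-5p was at 0.98, the tRNA-Val fragment at 0.55, mt-Tm at 7.68 and the 16-nucleotide miR-375-3p at 8.65. Total counts gave 3.34 for mt-Tm and 4.36 for that miR-375-3p, and upper quartile 0.69 and 1.78. The filter on oxidized libraries gave -0.26 for the 16-nucleotide let-7 sequence, -0.32 for the first 23 nucleotides of Rny1 and -0.89 for the 22-nucleotide tRNA-Asp fragment. That fragment was at -0.31 with DESeq2 size factors and the DESeq2 test, and at -0.49 with control libraries alone. Leaving out 1 library gave -0.98 to 0.51 for miR-375-3p and -0.19 to 0.30 for tRNA-Asp. Of the other values of single sequences, 309 kept direction and call, 24 lost the call and 9 gained one. Few counts in oxidized RNA limit what can be seen of rare sequences.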
